A study of Rattus norvegicus with 2 samples.

Results

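Adenosine signalling was examined through 8 listed genes: 4 adenosine receptor genes (Adora1, Adora2a, Adora2b and Adora3), Nt5e, which makes adenosine outside the cell, Ada and Adk, which remove it, and the transporter gene Slc29a1. Members were taken by the gene name printed in the array files, which gave 7 of the 8 genes, with 7 probes and 16 spots, out of 15972 genes measured on both arrays. No probe carried the name Adora3; a probe that the reference table assigns to that gene through its accession is described separately, as is a further probe of Adora1. The tissue was the nucleus tractus solitarius (NTS), the brainstem nucleus where visceral afferents from heart, vessels, lungs and gut first terminate. The 2 groups were a female pool and a male pool, each made from 5 adult Wistar Kyoto rats aged 9 weeks, with 100 ng of RNA per rat. Each pool was labelled with Cy3 and measured on 1 single-colour array, so there were no replicates, no test was possible, and differences between individual rats were not measured.

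Adenosine is formed outside cells from released ATP and AMP, acts on G protein-coupled receptors, and is cleared by uptake through nucleoside transporters followed by phosphorylation or deamination. Adora1 encodes the high-affinity receptor that couples to inhibitory G proteins and damps transmitter release, whereas Adora2a and Adora2b encode receptors that raise cyclic AMP. In the rat NTS, adenosine receptors are known to modulate cardiovascular reflexes.

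Stretches of probe sequence are shown for the genes on which the results turn. They are those of Ada, which differed most, Adk, the enzyme that competes with it for adenosine, the pair of Adora1 probes, which disagreed, Adora2a, the member with 10 spots, and Adora3, which the array files list under another name. All positions are those of the array files, on the rat build rn4, and the sequences come from the same files. The Ada probe lies on the minus strand at chr3:154637325-154637384 and the Adk probe on the minus strand at chr15:3094324-3094383, and both are within coding sequence. The Adora1 probe found by name lies on the minus strand at chr13:47160301-47160360 and spans the end of the coding sequence, with the stop codon in capitals. The further Adora1 probe, at chr13:47159190-47159249 on the same strand, starts 1111 bases further downstream. The Adora3 probe lies on the plus strand at chr2:201161366-201161425, and the capitals mark the letters of a polyadenylation signal. The Adora2a probe lies on the minus strand at chr20:13815854-13815913. Of the last 4 probes, 30 of 60 bases are printed.
Ada: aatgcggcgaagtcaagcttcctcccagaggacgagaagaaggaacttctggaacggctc
Adk: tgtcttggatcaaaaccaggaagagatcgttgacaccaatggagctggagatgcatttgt
Adora1, probe found by name: gacctcccagaggagaaagctgaggacTAG
Adora1, further probe: ggcttttgggagggtctcagataggaccaa
Adora3: tgcatttgagcaAATAAAagatggcgccca
Adora2a: gattccagagcatgggctcaggtcccatga

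All 16 member spots were well above background on both arrays, and none was saturated or flagged as an outlier. The transcripts of the receptor, enzyme and transporter genes found by name were therefore detected in the tissue labelled NTS in both pools. That tissue also held signal of blood, meningeal and choroid plexus markers, so the cells of origin are not known. A level is the log2 processed signal minus the 75th percentile of its array, which was a signal of 3380 on the female and 3441 on the male array. A difference is the female level minus the male level. The spot SD given beside a difference is the pooled SD of that difference among repeat spots, taken from probes of similar brightness that were spotted 10 times. It was 0.069 in the brightest class, less than 4-fold below the 75th percentile, 0.089 at 4- to 16-fold below, 0.15 at 16- to 64-fold below and 0.31 below that. It covers spot-to-spot error only, not the spread between rats or between labelling reactions. Levels of different probes are not compared, because probes bind with different strength.

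The labelled tissue was set against marker genes of hindbrain and forebrain. Of 10 listed markers of viscerosensory hindbrain, 8 had a probe and all 8 were well above background on both arrays, among them the neuropeptide gene Prlh and the transcription factor gene Lmx1b. Of 7 listed markers of striatum and forebrain, where Adora2a is best known, 5 were well above background on both arrays, among them Neurod6 and Emx1. The dopamine receptor gene Drd1 was not. The levels cannot tell fewer cells of a type from less RNA per cell.

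Among the members Ada stood apart, and the other 6 genes differed little between the pools. Relative to the 75th percentile, 4 members were higher in the female and 3 in the male pool. Over all measured genes 45.6% were higher in the female and 54.4% in the male pool. That split depends on the scaling: it was 56.1% and 43.9% when each array was set to its median, and 98.8% and 1.16% when scaled by the spike-in probes. The members' median difference was 0.037, and that of all genes was -0.014. The median size of a member's difference, without regard to direction, was 0.046, beside 0.094 over all genes. By mean level, every member found by name was less than 16-fold below the 75th percentile. All genes include dimmer ones, whose spot SD is larger, and no size matched for brightness is given. At a threshold of 1.5-fold, 0 members were higher in the female pool, where the share of all genes was 0.889%. Ada alone was 1.5-fold or more higher in the male pool, where the share of all genes was 1.6%. In either direction the share of all genes was 2.49%. No member reached 2-fold, beside 0.52% of all genes. The other 6 members had differences between -0.11 and 0.21. These directions hold relative to the 75th percentile. Scaling by the spike-in probes moved the median of all genes by 0.67, and then the 6 members other than Ada were all higher in the female pool, between 0.56 and 0.87, while Ada lay at -0.13.

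**Figure D1:**
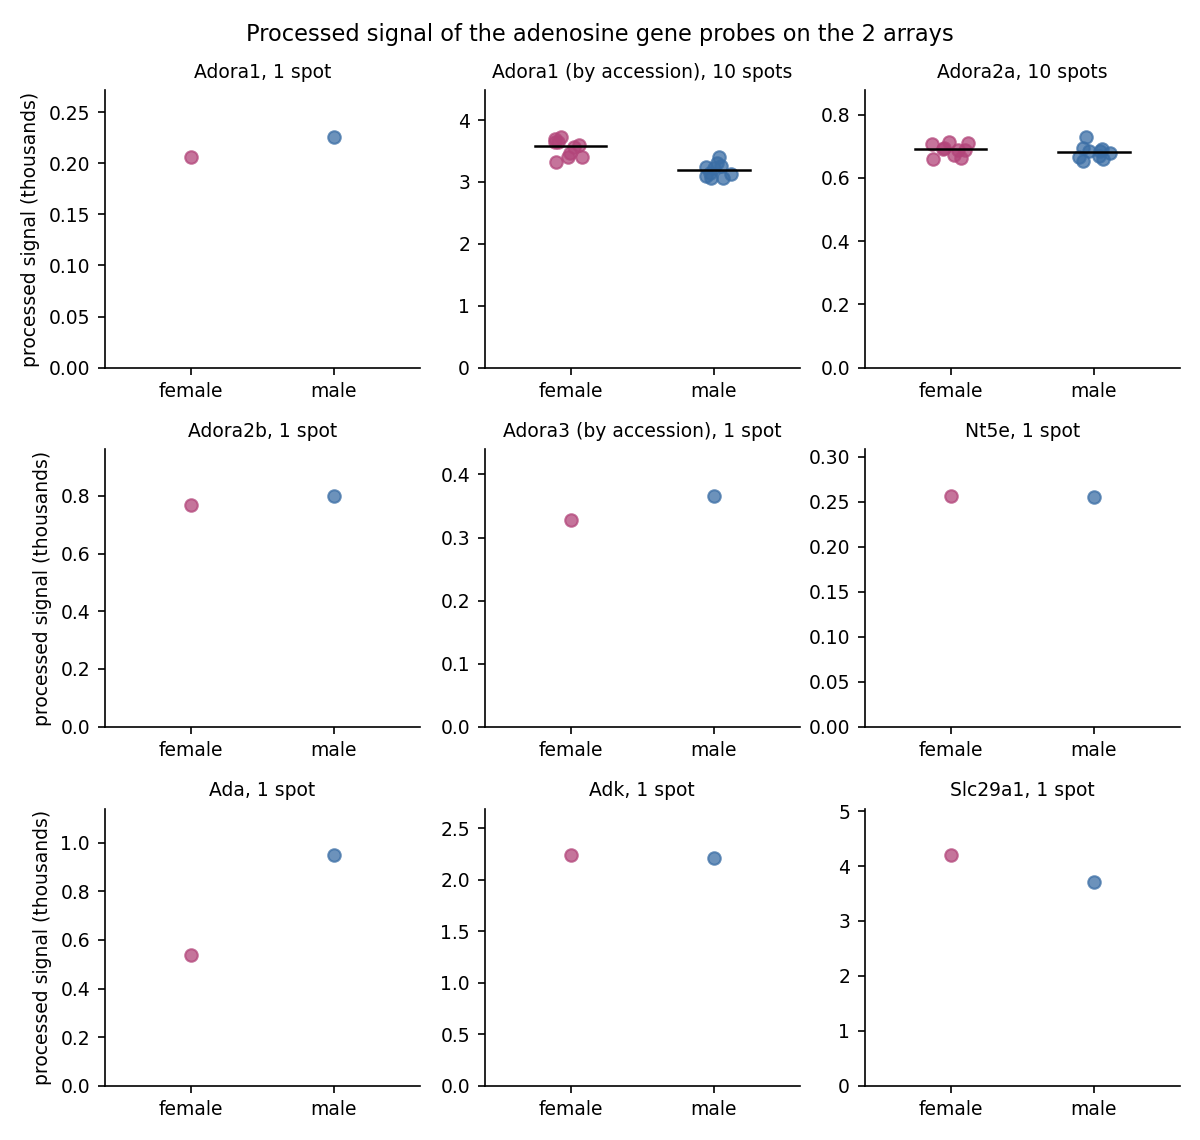
Processed signal of each adenosine gene probe on the female array (left) and the male array (right), with 1 point per spot and a line at the median where a probe has 10 spots; each panel has its own axis starting at 0. Ada had 539 on the female and 951 on the male array, whereas the 10 spots of Adora2a overlapped fully.

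The receptor genes were followed first. Adora2a was measured with 10 spots. Its signal had a lowest value of 661, a median of 691 and a highest value of 714 on the female array, against 652, 683 and 731 on the male array. The spots of the 2 arrays overlapped, and each of the 10 female spots had a level below that of at least 1 male spot. The mean difference was 0.042 ± 0.048 (SD, n = 10 spots), with spots between -0.039 and 0.12, and 8 of 10 were higher on the female array. Of all genes, 74.9% had a difference at least as large in size. Adora2b, the low-affinity receptor that also raises cyclic AMP, had a signal of 768 on the female and 801 on the male array in its single spot. Its difference of -0.034 was smaller than the spot SD of 0.089.

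Adora1 gave 2 readings. The probe found by name had a signal of 206 on the female and 226 on the male array in 1 spot, which differ by -0.11, with a spot SD of 0.089. The further probe was spotted 10 times and is listed in the files under an Ensembl transcript identifier; their description and the reference table both assign it to Adora1. Its signal had a lowest value of 3319, a median of 3586 and a highest value of 3731 on the female array, against 3067, 3189 and 3409 on the male array. All 10 spot differences were above 0, from 0.12 to 0.27, with a mean of 0.18 ± 0.057 (SD, n = 10 spots). Only 1 female spot had a level below that of a male spot. Relative to the 75th percentile the 2 probes thus pointed in opposite directions, at 0.93 and 1.13 times the male level. They report different stretches of the transcript, and how much each stretch is shared between transcript forms was not examined. The further probe gave 0.18 in a distribution where 11.1% of all genes were as high or higher.

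**Figure D2:**
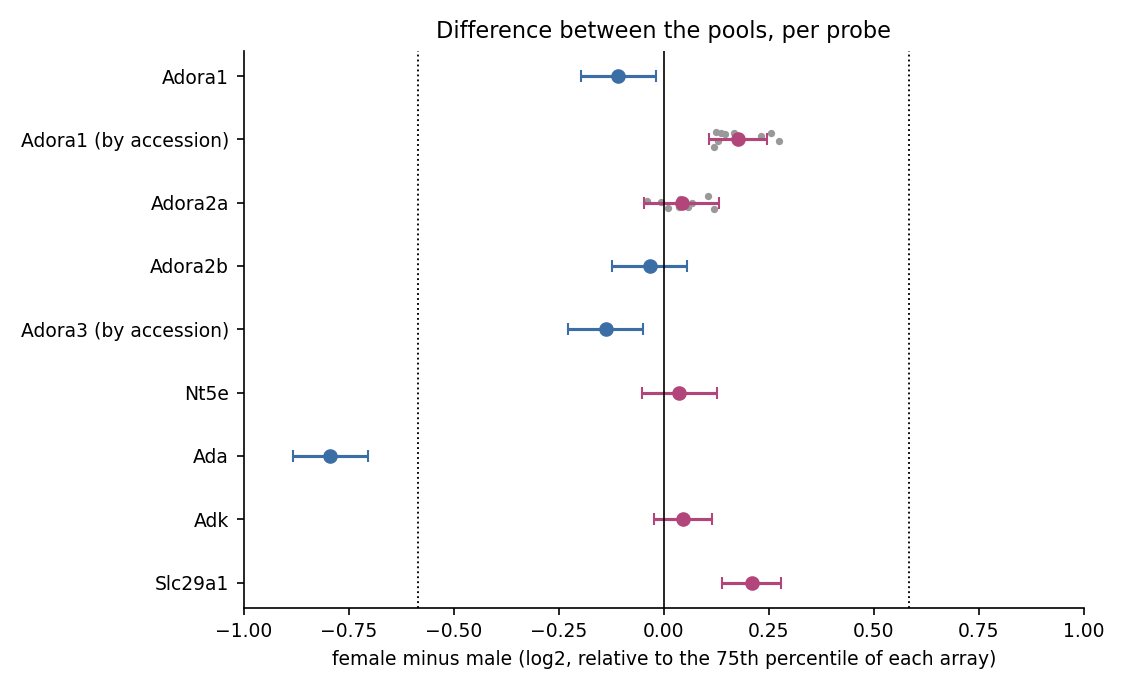
Difference between the pools for each probe, in log2 units, female minus male; large points are probe means, coloured by the pool in which the probe was higher, bars are 1 spot SD of the brightness class, small grey points are single spots, and dotted lines mark 1.5-fold. Ada lies at -0.79, beyond the line for 1.5-fold, and all other probes lie between -0.14 and 0.21.

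The Adora3 probe, which the array files name LOC100911796, had a signal of 327 on the female and 366 on the male array in 1 spot. This is a difference of -0.14, where the spot SD is 0.089. In mice Adora3 is known from microglia and mast cells. Of the 9 microglia and macrophage markers, all measured, 3 were higher in the female pool (median difference -0.11); their summed linear level, in multiples of the 75th percentile signal, was 20.6 in the female and 21.5 in the male pool. In such a sum the brightest probes weigh most. The part of these cells in the Adora3 value was not tested. The probe also carries accessions that the reference table does not list, and whether it measures more than 1 transcript form was not tested.

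Nt5e encodes the membrane-bound ectonucleotidase that turns AMP into adenosine. Its probe, on the plus strand of chromosome 8 from 93634357 to 93634416, had a signal of 257 on the female and 255 on the male array. It differed by 0.037, less than the spot SD of 0.089. Adk encodes adenosine kinase, which phosphorylates adenosine to AMP and is known as the main route of adenosine clearance in adult brain, largely in astrocytes. Its signal was 2242 on the female and 2210 on the male array, which differ by 0.046, with a spot SD of 0.069. For these genes of adenosine production and phosphorylation, the single spots differed by less than the spot SD.

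Ada encodes adenosine deaminase, which turns adenosine into inosine and is abundant in lymphoid cells. Its single spot had a signal of 539 on the female and 951 on the male array. The level was 1.73-fold lower in the female pool, a difference of -0.79, which is 8.90 times the spot SD of 0.089. Of all genes, 0.783% had a difference as low or lower. Among genes in the same brightness class, 1.14% were 1.5-fold or more higher in the male pool. The spots around it, within 6 rows and columns, had a median difference of -0.047, and the Ada difference relative to them was -0.75. The value rests on 1 spot and no second Ada probe was found by name or accession. Its size also depended on the background correction and the scaling: it was -0.63 with normexp correction and -0.13 when the arrays were scaled by their spike-in probes.

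**Figure D3:**
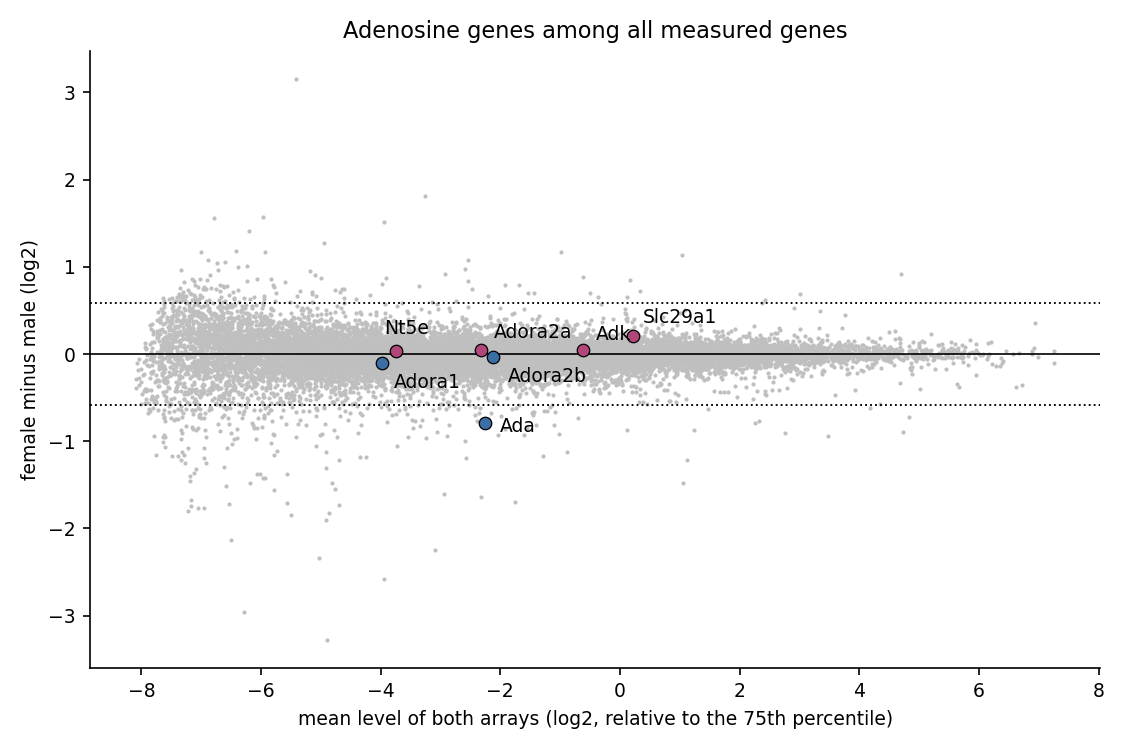
Difference between the pools (female minus male, log2) against the mean level of both arrays for 15972 genes (grey), with the 7 adenosine genes found by name marked and coloured by the pool in which they were higher; dotted lines mark 1.5-fold. Ada lies below most genes of its brightness, and the other 6 members lie among them.

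Markers of blood, meninges and choroid plexus moved in the same direction as Ada, and their part in its difference was not tested. Of 7 listed white blood cell markers, 6 were measured and 0 were higher in the female pool (median difference -0.61). Their summed level was 0.288 in the female and 0.431 in the male pool. The T cell marker Cd3e was not well above background on both arrays. Among them S100a8 and Np4 differed by -0.76 each. Their single spots lie within 4 stretches of array rows, called bands here, where many dim spots were brighter on the male array. The bands hold 20.4% of all rat spots, so a place in them does not by itself show that a spot was affected. The Ada spot lies outside these bands, and the Nt5e spot lies inside. All 7 markers of meninges and fibroblasts were higher in the male pool (median -0.42), with a summed level of 8.36 in the female and 13.8 in the male pool. Col1a2, a collagen gene, differed by -0.90 and Aldh1a2, of retinoic acid synthesis, by -0.54. Smaller differences were those of Dcn, at -0.20 over 10 spots, and Col1a1, at -0.095. All 5 measured red cell markers of 6 listed were also higher in the male pool (median -0.55), with summed levels of 30.3 in the female and 40.5 in the male pool. The 6 choroid plexus markers, all higher in males, had a median of -0.24 and summed levels of 13.9 in the female and 16.1 in the male pool. These sums mostly reflect the brightest gene of each list: Col1a2 for meninges, Hbb for red cells and Ttr for choroid plexus. Dcn, Col1a1, Hbb and Ttr were named after their values were seen.

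Slc29a1 encodes the equilibrative nucleoside transporter that carries adenosine across the plasma membrane along its gradient. Its probe, on the plus strand of chromosome 9 from 11014819 to 11014878, had a signal of 4206 on the female and 3704 on the male array. The female level was 1.16-fold higher, a difference of 0.21, or 3.02 spot SDs. Differences over 3 spot SDs of their class were found in 7.99% of all genes, and in 2 of the 7 members, Ada and Slc29a1. Of all genes, 8.60% were as high or higher than Slc29a1. Endothelial cells, which also carry this transporter, had markers with differences in the same direction. All 7 were higher in the female pool (median 0.18), with a summed level of 5.25 in the female and 4.48 in the male pool. Slc2a1, the glucose transporter of brain capillaries, differed by 0.26 and Cldn5, of their tight junctions, by 0.21. Their part in the Slc29a1 value was not tested.

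Astrocyte markers, set beside Adk, were lower in the female pool for the most part. Of 7 measured markers, 2 were higher in the female pool (median -0.10), with summed levels of 22.7 in the female and 23.3 in the male pool. Gfap differed by -0.27 and Aqp4 by -0.26, with Aqp4 probes from -0.32 to 0.017. The 2 markers higher in the female pool were Gjb6, at 0.21 over 10 spots, and S100b, at 0.059. Both were named here after their values were seen. Neuron markers, of which 6 of 7 listed were measured, had a median of -0.031, with Snap25 at 0.24 and Nefl at -0.16, and summed levels of 43.6 in the female and 43.9 in the male pool. Oligodendrocyte markers ran the other way: 5 of 7 were higher in the female pool (median 0.27), and Mog and Mobp differed by 0.47 and 0.36. Their summed level was 25.3 in the female and 24.3 in the male pool. The part of these cell types in the Adk value, which was smaller than its spot SD, was not tested.

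The other genes that make, move and sense extracellular purines were described by 6 lists, which held 74 different measured genes. Of these, 31 were higher in the female and 43 in the male pool (median -0.026). At 1.5-fold, 0 were higher in the female and 1 in the male pool, the ATP receptor gene P2ry2, beside 0.889% and 1.6% of all genes. The size of the median gene's difference was 0.094 in these lists, the value also found over all genes.

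Enzymes that break down extracellular ATP and AMP had 11 measured genes of 12 listed, 5 of them higher in the female pool (median -0.020). Entpd8 was not well above background on both arrays. By the median of a gene's probes, the largest difference was in Alpl, tissue-nonspecific alkaline phosphatase, with a signal of 482 on the female and 633 on the male array, which differ by -0.37, with a spot SD of 0.089. Entpd3, an ectonucleotidase of neurons, differed by 0.13 over 10 spots and Enpp1 by -0.11 over 10 spots. Acp3, a phosphatase that makes adenosine from AMP in sensory neurons, differed by 0.10. The 3 probes of Entpd2, an ectonucleotidase of glia, disagreed, with values from -0.11 to 1.16 and a median of -0.046; Entpd2 was named after its values were seen.

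Of 6 further nucleoside transporter genes, 2 were higher in the female pool (median -0.065). The concentrative transporter gene Slc28a1 was dim, with 77.9 on the female and 65.7 on the male array, and differed by 0.27 against a spot SD of 0.15. The equilibrative transporter genes Slc29a3 and Slc29a2 differed by -0.18 and -0.14, opposite in sign to their relative Slc29a1. Both have their single spot in the 4 bands but are in the brightest class, whereas the bands were described by dim spots. Without the bands the list's median was 0.032. Slc28a3 differed by 0.11, less than its spot SD of 0.31.

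Enzymes of intracellular AMP, adenosine and inosine metabolism had 22 measured genes of 24 listed. Of these, 9 were higher in the female pool (median -0.026), and the whole list ran from -0.19 to 0.24. Nt5c1a, a cytosolic nucleotidase that forms adenosine from AMP, differed by 0.24 in a spot with an SD of 0.31. Adss1, of AMP synthesis, differed by -0.19, the adenylate kinase Ak5 by 0.16 and the nucleotidase Nt5c3b by 0.14. Adal, an enzyme related to Ada, had a signal of 345 on the female and 357 on the male array, a difference of -0.023. Pnp, which acts on the inosine that Ada forms, differed by -0.095, and Xdh, further down that route, by 0.11. The single spots of Pnp and Xdh lie in the bands, and that of Pnp is in the brightest class. Adal, Pnp and Xdh were named after their values were seen, as the nearest steps to Ada.

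**Figure D4:**
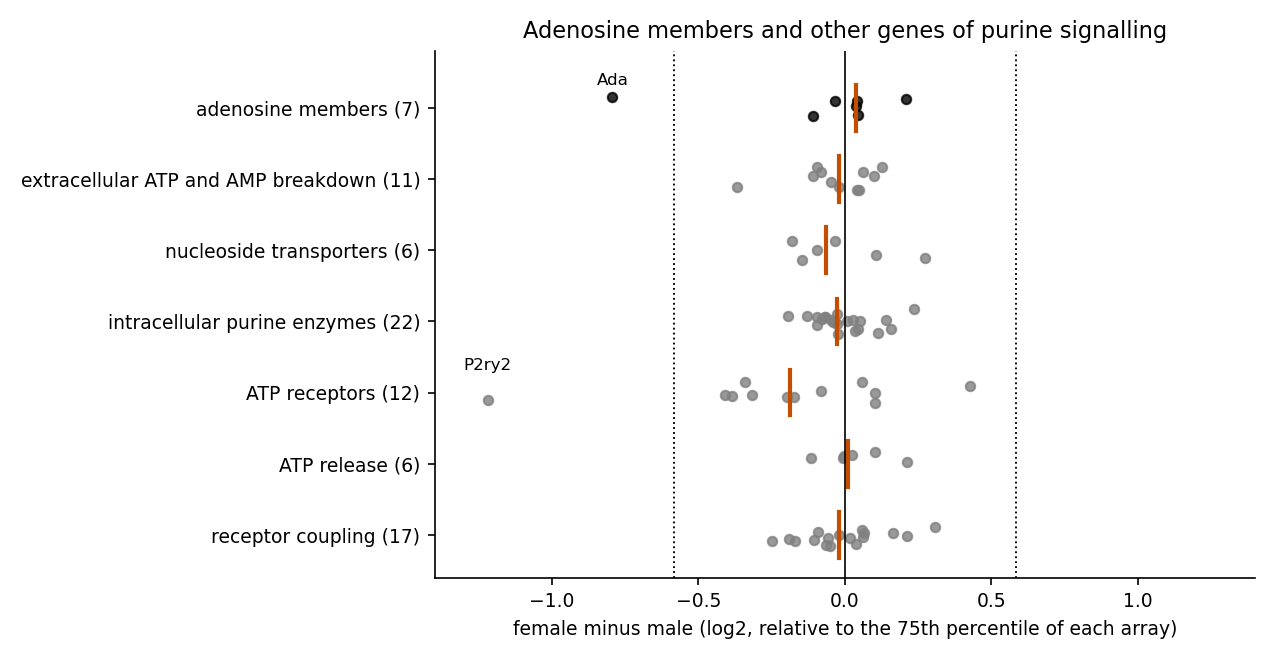
Differences between the pools (female minus male, log2) of the adenosine members and of 6 lists of related genes, with 1 point per gene, the number of measured genes in brackets and an orange line at the median; dotted lines mark 1.5-fold. The member median was 0.037, the ATP receptor median was -0.19, and Ada and P2ry2 lie beyond the lines.

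Receptors for ATP and related nucleotides gave the widest spread among the lists. Of 12 measured genes among 14 listed, 4 were higher in the female pool (median -0.19), beside -0.014 for all genes; with probes brighter than the median probe alone it was -0.080. P2rx1 and P2rx5 were not well above background on both arrays. P2ry2, a receptor for ATP and UTP, had a signal of 85.0 on the female and 202 on the male array, a difference of -1.22 where the spot SD was 0.15; in its brightness class 2.27% of genes passed 1.5-fold in the male direction. Its single spot lies in the 4 bands, and the count at 1.5-fold was 0 without them. The dim P2ry4, a UTP receptor, differed by 0.43 against a spot SD of 0.31. P2rx7, the ATP-gated channel of microglia and other immune cells, was measured with 10 spots and differed by -0.41. P2ry14, a receptor for UDP-sugars, differed by -0.38, with its spot in the bands.

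Genes of ATP release had 6 measured members of 8 listed, 3 of them higher in the female pool (median 0.012); Panx3 and Calhm1 were not well above background on both arrays. The gap junction gene Gjb6 differed by 0.21 over 10 spots. The vesicular nucleotide transporter gene Slc17a9 differed by -0.12, within its spot SD of 0.15, and the pannexin genes Panx2 and Panx1 by 0.10 and 0.026. Genes that couple adenosine receptors to their effectors had 17 measured members of 19 listed. Of these, 8 were higher in the female pool (median -0.019). The inhibitory G protein gene Gnai1 differed by 0.31 against a spot SD of 0.15, with its spot in the bands. Pde10a, a phosphodiesterase, differed by -0.25, and its probes gave values from -0.38 to -0.12. The potassium channel subunit genes Kcnj6 and Kcnj9, opened by inhibitory G proteins, differed by 0.21 and -0.19. Dpp4, whose product anchors adenosine deaminase at the cell surface, was not well above background on both arrays, and neither was Adcy1.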

How the data were processed

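The deposited intensity values are Agilent Feature Extraction output of 1-colour arrays; the file headers name version 10.7.3.1 and the submitters' processing notes 9.1. Per the file headers, background was subtracted and spatial trends removed on each array before the processed intensity was written; arrays were not scaled to each other. The authors' value table holds the same intensity values times 1 factor per array (linear and not centred, column medians 27.3 for the female and 28.0 for the male array) and was used as an alternative. The deposited files also hold 0 or 1 flags for background and outliers.

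Log2 processed signals were set relative to each array's 75th percentile over 42877 rat spots. The 430 flagged spots were left out, spots of a probe averaged, and probes well above background on both arrays kept (24530). Where a gene had several probes their median was taken. Members were taken by the files' gene name; other genes were named through accessions in the RefSeq table of GRCr8 (18758 probes by their own accession, 1035 by another) or by the files' symbol (3609), and coordinates are those of the files (rn4). Nt5c, Hba-a2, Rbfox3 and Hoxa5 were not analysed here. With 1 array per sex no test was made; precision is limited by that number. All members were named, and the genes with the largest differences in a list, up to 4 per pathway list and up to 2 per marker list. Members, lists and the 4 bands were chosen with earlier results of these data known. The steps were tested on simulated data. Alternatives changed the scaling, background correction, filters, probe choice, array position and threshold. Python 3.11.15, pandas 2.3.3 and limma 3.58.1 (normexp) were used.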

Additional observations from a re-analysis of the deposited data

How the results depend on the processing

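The 13 alternatives listed at the outset and 3 added after seeing the data (relative to surrounding spots, with probes assigned by accession, without Ada) were run. Scaling by the spike-in probes shifted all genes towards the female pool: the member median became 0.70, 5 members passed 1.5-fold in the female direction and 0 in the male direction, and of the pathway genes 50 and 0 did so. Under the other alternatives that kept it, Ada lay between -0.79 and -0.63. The count of members 1.5-fold or more higher in the male pool was 0 with a 3-fold threshold and 0 without Ada. Both counts were fixed in advance, because Ada alone was past 1.5-fold, at 1.73-fold. Adora1 was 0.034 when both of its probes were used, and Adora2b was 0.0011 with scaling by the median. Pathway genes past 1.5-fold in the female direction numbered 1 with probes above background on at least 1 array and 2 without a filter. Those higher in the male pool numbered 0 without the 4 bands, 0 among the brighter probes and 0 with a 3-fold threshold. These counts follow from P2ry2, the only such gene, which is dim, lies in the bands and differed 2.33-fold. No paired analysis was possible because each sex has 1 array. Dim single spots limit the smaller differences.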
